A study of Mus musculus with 16 samples.

Results

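The regions described here carried histone acetylation in undifferentiated MC3T3-E1 cells, an established line of mouse pre-osteoblasts whose cells mature into matrix-forming osteoblasts in culture. They were all 14975 regions of the H3K9Ac list and all 41592 regions of the H4K5Ac list, 56567 of the 314892 regions in the 14 peak lists of the series, and they were sorted by whether a region of the other acetylation overlapped them by at least 1 bp. The study used chromatin immunoprecipitation and sequencing (ChIP-seq) with 7 antibodies in undifferentiated cells and in cells differentiated over 15 days with ascorbic acid (50 µg/mL) and glycerol-2-phosphate (10 mM). All lists used were from cells of passages 5 to 12 given ethanol vehicle for 3 h. The other undifferentiated lists used were those of RUNX2, C/EBPβ, H3K4me1, H3K4me3 and H3K36me3, and the differentiated H3K9Ac and H4K5Ac lists were used at the end. The antibody label H4K5Ac was followed, although the protocol text has H3K5Ac. Each list held the merged peaks of biological replicates, so there was 1 list per antibody and state, no comparison had a replicate check and no p-value was computed. Intervals are 95% intervals that cover counting error only, exact for shares and densities and by Newcombe's method for differences of shares. How deeply each library was sequenced is unknown, and that can set the length of a list.

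Histone acetyltransferases place acetyl groups on lysines of the histone tails, histone deacetylases remove them, and bromodomain proteins bind them. Acetylation of lysine 9 of histone H3 (H3K9Ac) is known mostly from the nucleosomes around the transcription start sites (TSSs) of active genes and from active enhancers, and acetylation of lysine 5 of histone H4 (H4K5Ac) from newly deposited histones and from broad active domains. RUNX2 is the runt-domain transcription factor required for osteoblast formation, and C/EBPβ is a leucine zipper factor that acts in osteoblasts and adipocytes. H3K4me3 marks active promoters, H3K4me1 enhancers and promoter flanks, and H3K36me3 the bodies of transcribed genes.

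Factor peaks inside the acetylated regions are shown first, because the RUNX2 peaks of the 2 kinds of bases differed in how often they held the RUNX core letters. For each kind they are the 4 RUNX2 peaks nearest to a TSS of the fixed genes, 1 per gene, among those that touch no exon. They are printed whole, 5′ to 3′ on the plus strand of mm9, with matches to the RUNX letters (TGTGGT or ACCACA) in capitals. From bases with both acetylations come peaks upstream of Spp1 (chr5:104863915-104864115, 122 bp from the TSS), Cebpd (chr16:15887089-15887289, 190 bp) and Tnfrsf11b (chr15:54110175-54110375, 236 bp), all between genes, and in an intron of Actb, which encodes the cytoskeletal protein β-actin (chr5:143668114-143668314, 137 bp). From bases with H4K5Ac only come peaks near Dmp1 (chr5:104630588-104630788, 944 bp, between genes) and in introns of Phex (chrX:153851483-153851683, 1635 bp), the Wnt co-receptor gene Lrp6 (chr6:134423298-134423498, 2087 bp) and Alpl, which encodes tissue-nonspecific alkaline phosphatase (chr4:137300574-137300774, 2388 bp). The Lrp6 and Alpl distances are to annotated TSSs inside these genes. Both genes are on the minus strand and start far from these peaks, at chr6:134516983 and chr4:137352299. The Actb and Cebpd peaks hold no match, and the others hold 1 each. All 4 peaks with both acetylations lie within 1 kb of a TSS, and of those with H4K5Ac only just the Dmp1 peak does. The shown sets thus differ in distance from a TSS too. Over all fixed genes, 42 of 88 RUNX2 peaks with both acetylations and 12 of 21 with H4K5Ac only held the letters.
Spp1, both acetylations: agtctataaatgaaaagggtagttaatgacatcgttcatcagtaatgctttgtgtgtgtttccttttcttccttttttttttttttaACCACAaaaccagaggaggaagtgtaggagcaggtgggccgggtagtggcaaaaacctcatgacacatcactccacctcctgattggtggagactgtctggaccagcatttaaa
Actb, both acetylations: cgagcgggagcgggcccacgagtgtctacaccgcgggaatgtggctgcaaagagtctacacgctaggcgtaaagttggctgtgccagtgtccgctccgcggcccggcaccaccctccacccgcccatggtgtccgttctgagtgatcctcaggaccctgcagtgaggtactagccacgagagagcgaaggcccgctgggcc
Cebpd, both acetylations: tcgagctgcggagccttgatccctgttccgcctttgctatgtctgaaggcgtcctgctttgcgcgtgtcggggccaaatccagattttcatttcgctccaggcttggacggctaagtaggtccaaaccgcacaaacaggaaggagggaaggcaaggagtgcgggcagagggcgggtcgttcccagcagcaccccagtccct
Tnfrsf11b, both acetylations: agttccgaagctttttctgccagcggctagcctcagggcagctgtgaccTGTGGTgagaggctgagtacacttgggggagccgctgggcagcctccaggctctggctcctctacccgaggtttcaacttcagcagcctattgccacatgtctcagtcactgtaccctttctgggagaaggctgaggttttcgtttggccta
Dmp1, H4K5Ac only: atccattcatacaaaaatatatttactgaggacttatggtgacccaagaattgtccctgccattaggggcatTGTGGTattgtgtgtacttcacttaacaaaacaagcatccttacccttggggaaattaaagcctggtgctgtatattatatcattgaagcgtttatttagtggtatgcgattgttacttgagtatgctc
Phex, H4K5Ac only: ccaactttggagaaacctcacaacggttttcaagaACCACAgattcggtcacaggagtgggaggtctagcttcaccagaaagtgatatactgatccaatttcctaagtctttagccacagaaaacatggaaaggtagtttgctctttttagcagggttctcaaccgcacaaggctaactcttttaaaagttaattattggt
Lrp6, H4K5Ac only: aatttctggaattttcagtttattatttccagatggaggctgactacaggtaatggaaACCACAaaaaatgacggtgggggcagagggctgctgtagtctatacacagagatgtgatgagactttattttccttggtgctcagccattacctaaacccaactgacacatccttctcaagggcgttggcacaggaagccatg
Alpl, H4K5Ac only: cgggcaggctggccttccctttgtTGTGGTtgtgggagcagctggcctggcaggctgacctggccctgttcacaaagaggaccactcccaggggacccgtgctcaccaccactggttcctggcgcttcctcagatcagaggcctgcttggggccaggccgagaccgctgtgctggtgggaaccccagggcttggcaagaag

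H3K9Ac lay almost wholly inside H4K5Ac. Of the 14975 H3K9Ac regions, 14832 (99.0%, 98.9 to 99.2) overlapped H4K5Ac and 143 did not, and 13546 (90.5%) lay with their whole length inside H4K5Ac. In the other direction, 12846 of the 41592 H4K5Ac regions (30.9%, 30.4 to 31.3) overlapped H3K9Ac and 28746 (69.1%) did not. H3K9Ac covered 52.6 Mb and H4K5Ac 339.8 Mb. Of the H3K9Ac bases 98.5% were in H4K5Ac, and of the H4K5Ac bases 15.2% were in H3K9Ac. An H4K5Ac region with H3K9Ac usually held a single H3K9Ac region (11471 of 12846, 89.3%). Over all 12846, H3K9Ac covered a median of 49.7% of the H4K5Ac region's width (quartiles 28.9 and 67.3%). The most H3K9Ac regions in 1 H4K5Ac region was 12, in a domain of 185309 bp at Tcf7l2 (chr19:55806041-55991349, mm9), which encodes a transcription factor of Wnt signalling. That domain also held 9 RUNX2 and 17 C/EBPβ peaks. The share of H3K9Ac in H4K5Ac depended on the length of the H4K5Ac list: it was 73.1% when H4K5Ac was limited to its 14975 best-scored regions.

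The regions that carried both acetylations were the wider ones in each list. H4K5Ac regions with H3K9Ac had a median width of 6706 bp (quartiles 4100 and 13457) and those without 3659 bp (quartiles 2215 and 6812), a ratio of 1.83. H3K9Ac regions with H4K5Ac had a median width of 2905 bp (quartiles 2163 and 4060) and those without 1507 bp (quartiles 1257 and 2157), a ratio of 1.93. A wider region had more room to overlap the other mark. When an overlap of at least 200 bp was required, the ratios stayed at 1.83 for H4K5Ac and 1.93 for H3K9Ac. With at least 50% of the shorter region they were 1.83 and 1.86. When the region's centre had to lie inside the other mark, the ratios were 1.17 for H4K5Ac and 1.56 for H3K9Ac. The part of this room for overlap in the ratios was not tested. Regions with both acetylations also scored higher on the authors' peak score, which was used only to rank regions within a list. The median H4K5Ac region with H3K9Ac stood at the percentile 76.2 of its list and the median one without at 36.4. The 143 H3K9Ac regions without H4K5Ac had a median percentile of 8.51. The width ratio of H4K5Ac turned round among high-scored regions: it was 0.925 in the better-scored 50% of each list and 0.847 when H4K5Ac was limited to as many regions as H3K9Ac.

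H4K5Ac with H3K9Ac lay at gene starts, and H4K5Ac alone lay away from them. A TSS was within 1 kb of 9764 of 12846 H4K5Ac regions with H3K9Ac (76.0%, 75.3 to 76.7) and of 2441 of 28746 without (8.49%, 8.17 to 8.82), a difference of 67.5 percentage points (66.7 to 68.3). H4K5Ac regions without H3K9Ac were inside a gene but away from its starts in 45.3% and between genes in 46.2%, against 9.93 and 14.1% of those with H3K9Ac. The difference at promoters was present in each of 5 width classes, from 44.0 points above 20 kb to 75.9 points at 2 to 5 kb. The few H3K9Ac regions without H4K5Ac were near a TSS in 115 of 143 cases (80.4%, 73.0 to 86.6), and those with H4K5Ac in 66.8% (66.1 to 67.6).

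H3K4me3 was found in both-acetylated regions and almost nowhere else in H4K5Ac. It overlapped 6706 of 12846 H4K5Ac regions with H3K9Ac (52.2%, 51.3 to 53.1) and 7 of 28746 without (0.0244%, 0.00979 to 0.0502). At promoters the shares were 67.0 and 0.123%. H3K4me1 was frequent in both classes, at 98.3% of H4K5Ac regions with H3K9Ac and 79.6% without. H3K36me3 overlapped 68.0% of those with H3K9Ac and 30.5% of those without. That order was the other way round in narrow regions: from 1 to 2 kb, H3K36me3 overlapped 27 of 218 with H3K9Ac (12.4%, 8.32 to 17.5) and 1554 of 5666 without (27.4%, 26.3 to 28.6). Away from TSSs the order was also reversed from 2 to 5 kb, with 150 of 711 (21.1%) and 3377 of 11612 (29.1%), a difference of -7.98 points (-10.9 to -4.73).

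**Figure D1:**
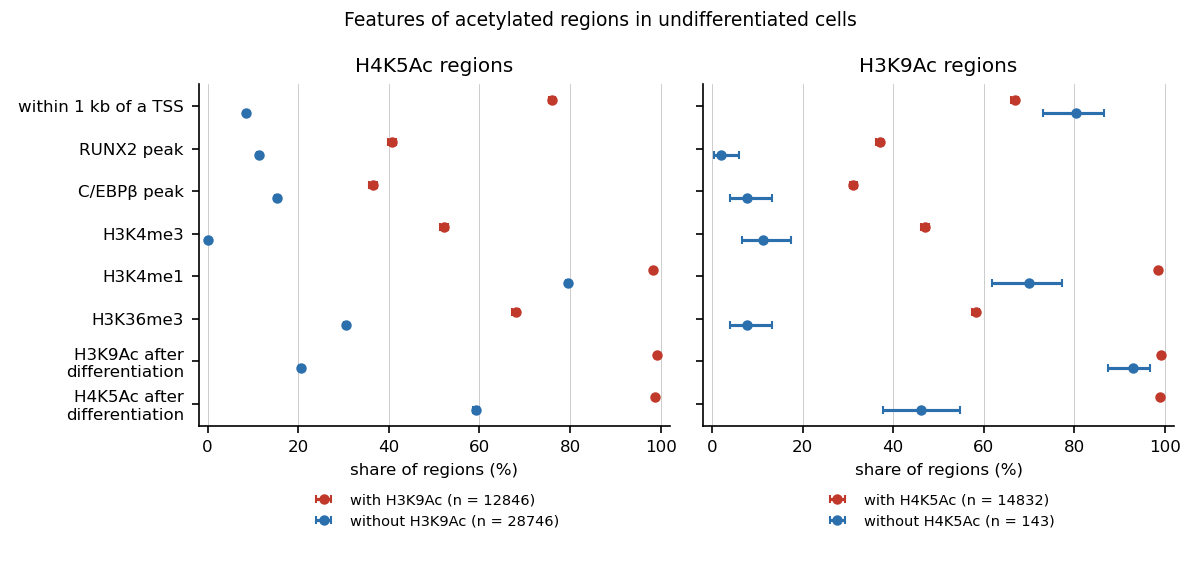
Share of regions (x axis, %) with each feature, for H4K5Ac regions with and without H3K9Ac (left) and H3K9Ac regions with and without H4K5Ac (right) in undifferentiated cells. Points are shares and bars exact 95% intervals. H3K4me3 reaches 52.2% of H4K5Ac regions with H3K9Ac and lies near 0 without it.

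Peaks of RUNX2 and of C/EBPβ were both more frequent in H4K5Ac regions that also held H3K9Ac. RUNX2 was present in 5237 of 12846 H4K5Ac regions with H3K9Ac (40.8%, 39.9 to 41.6) and in 3269 of 28746 without (11.4%, 11.0 to 11.7), a difference of 29.4 points (28.5 to 30.3). The shares with C/EBPβ were 36.5% (35.7 to 37.4) and 15.3% (14.9 to 15.7), a difference of 21.3 points (20.3 to 22.2). Away from TSSs the differences were larger, with RUNX2 in 51.1 and 11.0% and C/EBPβ in 52.3 and 15.0%. Both factors together were in 22.8% of H4K5Ac regions with H3K9Ac and in 5.20% of those without. Among H3K9Ac regions, RUNX2 was in 5485 of 14832 with H4K5Ac (37.0%, 36.2 to 37.8) and in 3 of 143 without (2.10%, 0.435 to 6.01). C/EBPβ was in 31.1% and 7.69%, the latter 11 of 143 regions. The H3K9Ac regions without H4K5Ac were narrower, and comparisons within width classes are given below.

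A wide region has more room for a factor peak, so the H4K5Ac regions were also compared within width classes. From 1 to 2 kb, RUNX2 was in 16 of 218 regions with H3K9Ac (7.34%, 4.25 to 11.6) and in 100 of 5666 without (1.76%, 1.44 to 2.14). Above 20 kb it was in 82.4% (80.7 to 84.1) and 51.4% (48.5 to 54.2). The difference for RUNX2 was between 5.57 and 31.1 points over the 5 classes. For C/EBPβ it was between 3.99 and 22.8 points. At promoters from 1 to 2 kb wide, however, C/EBPβ did not differ by more than counting error (7 of 141 and 22 of 430 regions, a difference of -0.15 points, -3.72 to 5.07). Both differences also shrank among high-scored regions: with only the better-scored 50% of each list, the difference was 15.7 points for RUNX2 and 4.93 points for C/EBPβ.

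**Figure D2:**
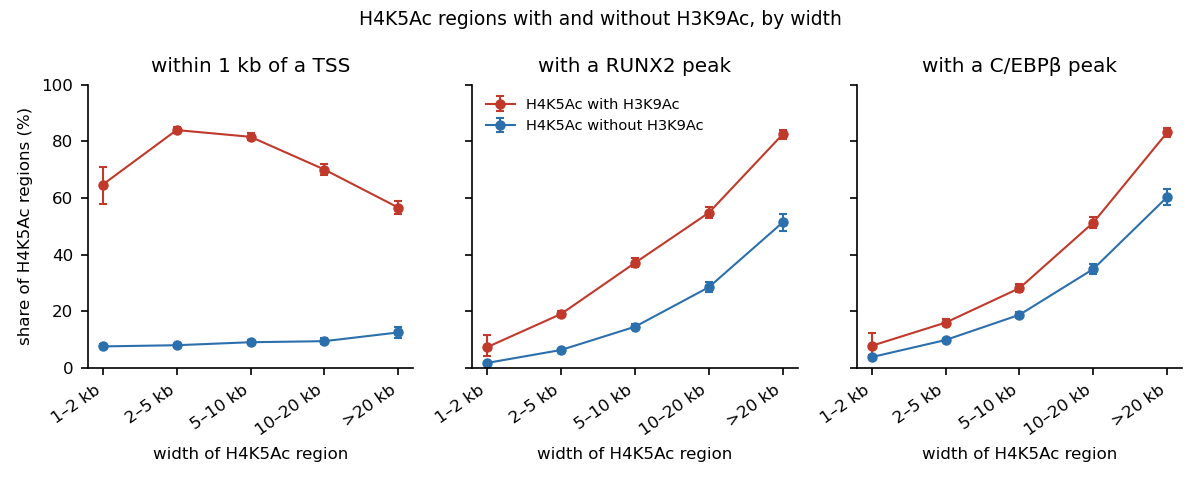
Share of H4K5Ac regions (y axis, %) within 1 kb of a TSS, with a RUNX2 peak and with a C/EBPβ peak, by width of the region (x axis), with and without H3K9Ac. Points are shares and bars exact 95% intervals. In the 5 width classes the share with RUNX2 is 5.57 to 31.1 points higher with H3K9Ac.

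Counted by bases in place of regions, both factors were densest where both acetylations met. Both acetylations covered 51.8 Mb, 2.02% of the assembled genome, and that space held 6926 RUNX2 peak centres, 54.7% of those on the nuclear chromosomes. H4K5Ac without H3K9Ac covered 288.0 Mb (11.3%) and held 5371 (42.4%). C/EBPβ peak centres had the other order, with 6124 (39.2%) in bases with both acetylations and 7909 (50.6%) in bases with H4K5Ac only. The density of RUNX2 was 133.8 peaks per Mb (130.7 to 137.0) in bases with both acetylations and 18.6 (18.2 to 19.2) in bases with H4K5Ac only, a ratio of 7.18 (6.92 to 7.44). For C/EBPβ it was 118.3 (115.4 to 121.3) and 27.5 (26.9 to 28.1), a ratio of 4.31 (4.17 to 4.46). Bases with H3K9Ac only (0.790 Mb) had 11.4 RUNX2 peaks per Mb (5.21 to 21.6, 9 peaks), and bases with neither acetylation 0.160. More than 1 kb from a TSS the ratios were 6.79 for RUNX2 and 4.97 for C/EBPβ. C/EBPβ peaks were in bases with neither acetylation more often than RUNX2 peaks, at 10.1% (9.60 to 10.5) and 2.80% (2.52 to 3.11).

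Inside H4K5Ac domains the factor density was highest close to H3K9Ac. In H4K5Ac regions that held H3K9Ac, the bases outside H3K9Ac had 13.4 RUNX2 peaks per Mb (12.7 to 14.1), fewer than the 22.2 per Mb (21.5 to 22.9) of H4K5Ac regions without any H3K9Ac. C/EBPβ followed the same order, with 21.6 (20.8 to 22.5) and 31.4 (30.6 to 32.3) per Mb. Measured from the centre of H3K9Ac regions away from TSSs, RUNX2 had 334.8 peaks per Mb of H4K5Ac (318.8 to 351.4) within 500 bp, 57.8 from 1 to 2 kb and 24.9 from 3 to 5 kb. C/EBPβ had 318.7, 66.8 and 33.5 in the same bins. Around H3K9Ac regions near a TSS the central density was lower, at 156.2 for RUNX2 and 100.6 for C/EBPβ, and RUNX2 stood above C/EBPβ there.

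**Figure D3:**
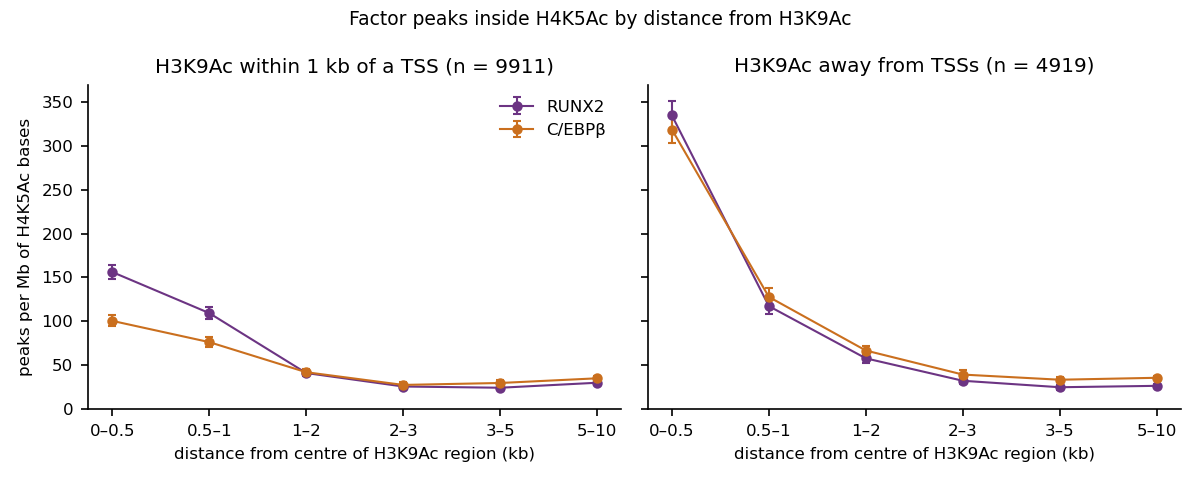
RUNX2 and C/EBPβ peaks per Mb of H4K5Ac bases (y axis) by distance from the centre of an H3K9Ac region (x axis, kb), for H3K9Ac regions near a TSS (left) and away from TSSs (right). Points are densities and bars exact Poisson 95% intervals. Away from TSSs, RUNX2 falls from 334.8 within 500 bp to 24.9 at 3 to 5 kb.

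Overlap between the 2 factors differed for C/EBPβ peaks and not for RUNX2 peaks beyond counting error. C/EBPβ overlapped 31.8% (30.7 to 32.9) of RUNX2 peaks in bases with both acetylations and 31.8% (30.6 to 33.1) in bases with H4K5Ac only. RUNX2 overlapped 2203 of 6124 C/EBPβ peaks in bases with both acetylations (34.8 to 37.2%) and 1723 of 7909 in bases with H4K5Ac only (20.9 to 22.7%). The 2 kinds of bases differed in place. Promoters held 45.5% of RUNX2 peaks with both acetylations and 2.96% with H4K5Ac only, and 33.9 and 2.95% of C/EBPβ peaks. The overlap of the factors was not compared near and away from TSSs separately. H4K5Ac regions with H3K9Ac had 4 or more RUNX2 peaks in 345 of 12846 cases (2.69%), and those without in 15 of 28746 (0.0522%). These counts were not compared within width classes. Regions over 20 kb wide, with more room for peaks, were 2028 of those with H3K9Ac and 1182 of those without.

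The RUNX2 peaks of the 2 kinds of bases differed in sequence. The RUNX letters shown above were found within 100 bp of 2616 of 6926 RUNX2 peak centres in bases with both acetylations (37.8%, 36.6 to 38.9) and of 3630 of 5371 in bases with H4K5Ac only (67.6%, 66.3 to 68.8), a difference of -29.8 points (-31.5 to -28.1). Windows of the same length 1 kb to each side held them in 14.7 and 15.2%. Near TSSs the shares were 22.0% (20.6 to 23.5) and 62.3% (54.2 to 69.8), and away from TSSs 50.9% (49.3 to 52.5) and 67.7% (66.5 to 69.0). Of RUNX2 peaks with both acetylations near a TSS, 23.2% held the ETS letters CCGGAA and 49.6% the GC box GGGCGG, on either strand. In windows 1 kb away these shares were 4.32 and 9.07%. In RUNX2 peaks with H4K5Ac only near a TSS they were 1.26 and 11.3%. The AP-1 letters TGANTCA had the other order near TSSs, in 3.72% (3.08 to 4.44) of RUNX2 peaks with both acetylations and 13.2% (8.37 to 19.5) with H4K5Ac only. These letter strings can overlap each other, a match is a description and not a bound site, and base composition differed too, with 27.6 CpG per kb in bases with both acetylations and 9.07 in bases with H4K5Ac only. The part of base composition in these shares was not tested.

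C/EBPβ peaks showed a smaller difference in the same direction. The C/EBP letters (TTGCNNAA or TTNNGCAA) were within 100 bp of 32.7% (31.6 to 33.9) of C/EBPβ peak centres with both acetylations and 42.5% with H4K5Ac only, a difference of -9.73 points (-11.3 to -8.12). Near TSSs the difference was -5.79 points, and its interval held 0 (-12.5 to 0.667).

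**Figure D4:**
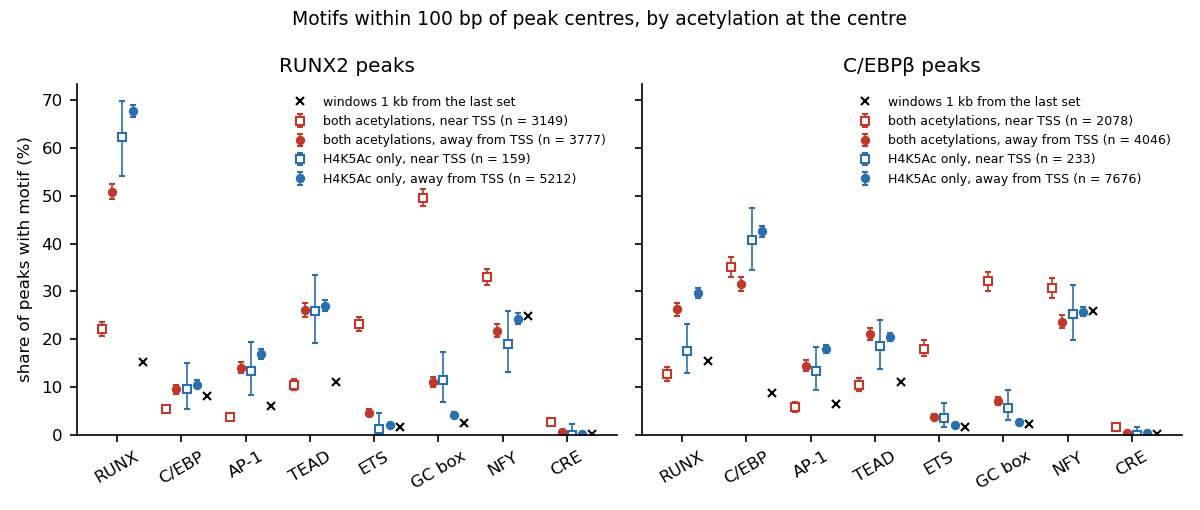
Share of RUNX2 peaks (left) and C/EBPβ peaks (right) with each motif within 100 bp of the centre (y axis, %), by acetylation of the centre and distance from a TSS (within or beyond 1 kb). Points are shares and bars exact 95% intervals, and crosses are windows 1 kb away from the distal H4K5Ac-only peaks. Of the RUNX2 peak sets shown, those with both acetylations near a TSS have the lowest RUNX share, 22.0%.

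At the level of genes, most acetylated promoters had both acetylations. H3K9Ac was at a promoter of 10987 genes (49.1%) and H4K5Ac of 12397 (55.4%). Of 22368 genes, mostly protein-coding, 10873 had H3K9Ac and H4K5Ac within 1 kb of a TSS (48.6%), 1524 had H4K5Ac without H3K9Ac (6.81%), 114 had H3K9Ac without H4K5Ac (0.51%) and 9857 had neither (44.1%). H3K4me3 was at a promoter of 71.4% of the genes with both (70.5 to 72.2), 0.984% of those with H4K5Ac only (0.552 to 1.62), 21.9% of those with H3K9Ac only (14.7 to 30.6) and 0% of those with neither (0 of 9857, which allows up to 0.0374%). H3K36me3 covered a median of 86.3% of the gene body of genes with both, 0% with H4K5Ac only and 4.24% with H3K9Ac only. RUNX2 was at a promoter of 30.1% of the genes with both and 4.53% of those with H4K5Ac only.

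The promoters of the classes differed in sequence as well, here with each gene classed by its most upstream TSS alone (10401, 1438, 127 and 10402 genes with both, H4K5Ac only, H3K9Ac only and neither). In the 300 bases from 250 before to 50 after that TSS, the ratio of observed to expected CpG had a median of 0.789 with both acetylations (quartiles 0.619 and 0.921), 0.298 with H4K5Ac only (0.178 and 0.501), 0.742 with H3K9Ac only and 0.242 with neither. The GC box was in 66.2, 26.8, 63.8 and 22.8% of these promoters, and in 43.4% of all. The RUNX letters were in 11.1, 21.3, 7.87 and 18.7%, and in 15.3% of all. Of all promoters, 10.3% held the C/EBP letters, 17.5% the ETS letters and 6.93% the AP-1 letters.

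The gene lists separated by class. The shares of all genes given above, 48.6% with both acetylations and 6.81% with H4K5Ac only, are the background for the counts that follow. All 22 cell cycle genes, 22 ribosomal protein genes, 10 housekeeping genes, 12 lysine acetyltransferases and 16 acetyl-lysine readers had both acetylations. Among the enzymes that remove acetyl groups, 13 of 16 histone deacetylase genes had both, Hdac4 and Hdac6 had H4K5Ac only, and Hdac9 had neither. Of 24 osteoblast transcription factor genes 21 had both. The exceptions were Dlx3 and Tcf7 with H4K5Ac only and Msx1, a homeobox gene of skeletal development, with H3K9Ac only. Of 24 genes of bone matrix and mineralisation 17 had both, 4 had H4K5Ac only and 3 had neither. In the list of Wnt, BMP and TGFβ signalling, 22 of 28 had both, Dkk1, a Wnt inhibitor, and Bmp4 had H4K5Ac only, and Sost, Sfrp1, Bmp2 and Bmp6 had neither. In the osteoclast coupling list 9 of 11 had both, and Tnfsf11, which encodes RANKL, the osteoclast differentiation factor, had H4K5Ac only. In the matrix remodelling list 10 of 14 had both, and the collagenase gene Mmp13 had H4K5Ac only.

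Marker lists of other cell types were read against the cell label, and few of their promoters had both acetylations, apart from the chondrocyte list. Both acetylations were at 2 of 12 adipocyte markers (Cebpa and Lipe), 1 of 9 endothelial (Flt1), 1 of 12 haematopoietic (Cd34), 1 of 12 neural (Pax6) and 0 of 12 muscle markers. H4K5Ac only was at 4 of 12 adipocyte markers (Pparg, Fabp4, Adipoq and Slc2a4), 4 of 9 endothelial markers (Pecam1, Tek, Vwf and Erg) and 3 of 12 muscle markers (Des, Myh3 and Tnni1). Haematopoietic and neural markers had it at 2 of 12 each, Csf1r and Lyz2 in the first and Gfap and Tubb3 in the second. Neither acetylation was at 6 of 12 adipocyte, 4 of 9 endothelial, 9 of 12 haematopoietic, 9 of 12 neural and 9 of 12 muscle markers. Of 12 chondrocyte markers 6 had both, 2 had H4K5Ac only (Col9a1 and Col11a1) and 4 had neither. None of 15 olfactory and vomeronasal receptors had both, and Olfr151 had H4K5Ac only. The lists hold 7 to 28 genes each, so these counts describe the lists and were not tested.

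**Figure D5:**
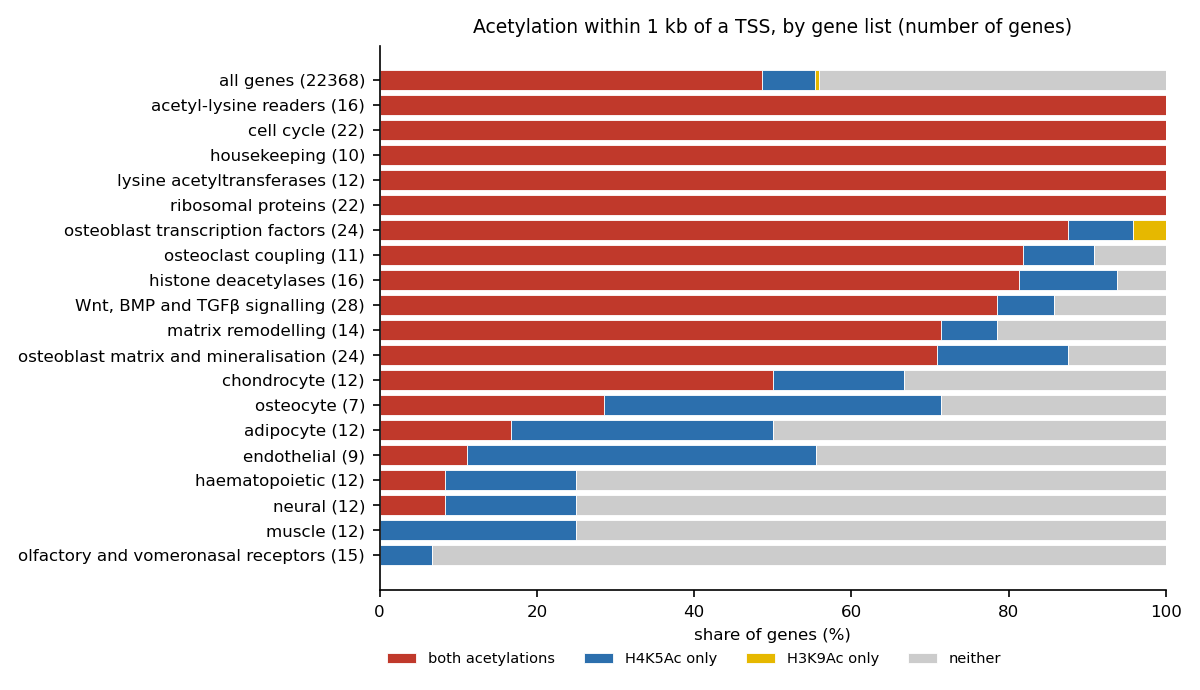
Share of genes (x axis, %) with both acetylations, H4K5Ac only, H3K9Ac only or neither within 1 kb of a TSS, for all 22368 genes and for 19 gene lists, with the number of genes in brackets. Cell cycle, ribosomal protein, housekeeping, acetyltransferase and acetyl-lysine reader genes are all in the class with both. The osteocyte list has 2 of 7 genes with both, 3 with H4K5Ac only and 2 with neither.

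The osteoblast genes fixed for naming fell on both sides. Among transcription factors, Runx2 itself had H3K9Ac regions of 12196 bp (chr17:44865188-44877383) and 16635 bp (chr17:44939903-44956537) around its alternative promoters, inside H4K5Ac domains of 205457 and 82373 bp. The longer domain held 6 RUNX2 and 7 C/EBPβ peaks. Sp7, which encodes osterix, had H3K9Ac over 6285 bp in an H4K5Ac domain of 43771 bp with 6 RUNX2 peaks. Cebpd, a relative of C/EBPβ, had H3K9Ac over 4741 bp with 3 RUNX2 peaks inside 6447 bp of H4K5Ac. Dlx3 differed: its promoter lay in 12317 bp of H4K5Ac (chr11:94977663-94989979) with no H3K9Ac, H3K4me3, RUNX2 or C/EBPβ. An H3K9Ac region 13400 bp from its TSS (chr11:94955687-94968003) did overlap H4K5Ac and held 7 RUNX2 peaks and 1 C/EBPβ peak.

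Matrix genes showed the contrast along the gene cluster of small bone glycoproteins on chromosome 5. Spp1, which encodes osteopontin, had H3K9Ac over 6690 bp (chr5:104860853-104867542) in an H4K5Ac domain of 98670 bp (chr5:104798703-104897372) with 8 RUNX2 and 13 C/EBPβ peaks. Its neighbours Dmp1, Ibsp and Mepe had H4K5Ac and no H3K9Ac at their promoters. The Dmp1 domain was 58655 bp wide (chr5:104628889-104687543) with 2 RUNX2 peaks, and those of Ibsp (11388 bp) and Mepe (12446 bp) held none. Mepe did have both acetylations away from its promoter. There, 14349 bp from its TSS, 6044 bp of H3K9Ac (chr5:104768697-104774740) lay in 23597 bp of H4K5Ac with no factor peak. Phex, an endopeptidase gene of phosphate balance, had 7306 bp of H4K5Ac with 1 RUNX2 peak (chrX:153847032-153854337). The collagen I genes had both acetylations: Col1a1 had H3K9Ac over 33387 bp in 71559 bp of H4K5Ac, and Col1a2 over 41225 bp in 67811 bp. Bglap, which encodes osteocalcin, had neither acetylation at its promoter, and neither had the osteocyte genes Sost and Fgf23. Of the 7 matched osteocyte genes, Pdpn and Cd44 had both acetylations, and Dmp1, Phex and Mepe had H4K5Ac only.

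Genes for signals to osteoclasts were split too. Csf1, the macrophage colony-stimulating factor gene, had H3K9Ac over 24279 bp in an H4K5Ac domain of 190755 bp (chr3:107480167-107670921) with 8 H3K9Ac regions, 16 RUNX2 and 16 C/EBPβ peaks. Tnfrsf11b, the gene of the decoy receptor osteoprotegerin, had H3K9Ac over 3264 bp with 1 peak of each factor. Tnfsf11 had 3647 bp of H4K5Ac at its promoter (chr14:78703895-78707541), with no factor peak. Away from the promoter it did have both acetylations. An H3K9Ac region 74527 bp from its TSS (chr14:78782377-78784676) lay in 15112 bp of H4K5Ac and held 4 RUNX2 peaks and 1 C/EBPβ peak. Over the fixed genes, 88 RUNX2 peaks were in bases with both acetylations and 42 of them held the RUNX letters, and 21 were in bases with H4K5Ac only, of which 12 held them.

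The widest H4K5Ac regions without H3K9Ac lay mostly away from gene starts, and 2 of the 10 widest reached a promoter, those of Tmem178 and Npvf. The widest covered 128275 bp (chr15:63031986-63160260), 539842 bp from the nearest TSS of the gene set, that of Gsdmc, with 2 RUNX2 peaks and 1 C/EBPβ peak. The next covered 106444 bp at Tmem178 (chr17:81311502-81417945), and the others ranged from 89438 to 99182 bp, among them regions nearest to Adamts9, Fbxl7, Pdgfc and Zeb2. None of the 10 widest had H3K4me3. The genes with most H4K5Ac regions and no H3K9Ac region assigned by nearest TSS within 100 kb were Me3 (14 regions), Gm9966 and Skap1 (13 each) and Efcab1, Tas2r134 and Tbxas1 (12 each). Me3 and Tbxas1 still had H3K9Ac within 1 kb of a TSS, since a region was assigned by its centre. In total 3148 genes (14.1%) had such regions and no H3K9Ac region assigned. Among the best-scored H3K9Ac regions were those at Tnrc18, Brd2, Mab21l1 and Prrx1, each at a promoter with H3K4me3. Brd2 encodes a bromodomain reader of acetylated histones, and Prrx1 a homeobox factor of limb mesenchyme.

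The 143 H3K9Ac regions without H4K5Ac were narrow, low in score and poor in other marks. Their median distance to the nearest H4K5Ac region was 21489 bp (quartiles 8837 and 45003), and 41 were within 10 kb of one. H3K4me3 was at 16 of them (11.2%, 6.53 to 17.5) against 47.0% of the H3K9Ac regions with H4K5Ac, H3K4me1 at 100 (69.9%) against 98.5%, and H3K36me3 at 11 (7.69%) against 58.2%. Within the width class of 1 to 2 kb the share with RUNX2 was still lower without H4K5Ac (3 of 100) than with it (575 of 2761, 20.8%), and that with H3K4me3 differed by 3.56 points with an interval that held 0 (-3.00 to 6.98). Near TSSs in that class, H3K4me3 was at 4 of 72 without H4K5Ac and 240 of 1120 with it, a difference of 15.9 points (7.67 to 20.1). C/EBPβ in that class was at 9 of 100 without H4K5Ac and 607 of 2761 with it (22.0%), a difference of 13.0 points (5.60 to 17.5). Taken apart, its intervals held 0 near TSSs (4.48 points, -4.00 to 8.90) and away from them (14.9 points, -2.43 to 23.8). From 2 to 5 kb, C/EBPβ was at 2 of 40 and 2756 of 9850, a difference of 23.0 points (11.4 to 26.7). The widest were 23533 and 6661 bp at Gm10717 and Gm11168 at the start of chromosome 9 (chr9:3015153-3038685 and chr9:2999753-3006413), gene models with near-identical copies, where reads may be placed uncertainly. The next in width were at promoters of Zic5, a zinc finger gene (5662 bp, chr14:122860136-122865797), Bcorl1, which encodes a corepressor (4498 bp, chrX:45695026-45699523), and Kitl, which encodes stem cell factor (3956 bp, chr10:99477365-99481320). The Msx1 region was 2348 bp wide (chr5:38213973-38216320), and H4K5Ac overlapped it in differentiated cells. On chromosome X, 16 of 372 H3K9Ac regions were without H4K5Ac (4.30%, 2.48 to 6.89), and on the autosomes 127 of 14596 (0.870%, 0.726 to 1.03), a difference of 3.43 points (1.79 to 6.01). Single autosomes ranged from 0.104% on chromosome 1 to 2.70% on chromosome 12 (13 of 481, 1.45 to 4.58). Chromosome 4 had 20 of 917 (2.18%, 1.34 to 3.35), and the intervals of chromosomes 4 and 12 overlapped that of X.

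Regions with both acetylations were nearly all present in differentiated cells, and those with 1 acetylation less often. A differentiated H3K9Ac region overlapped 99.3% of the H4K5Ac regions with H3K9Ac, and a differentiated H4K5Ac region 98.8% (98.6 to 99.0). Of the H4K5Ac regions without H3K9Ac, 59.2% (58.7 to 59.8) overlapped differentiated H4K5Ac and 20.5% differentiated H3K9Ac. Of the 143 H3K9Ac regions without H4K5Ac, 133 overlapped differentiated H3K9Ac (93.0%, 87.5 to 96.6) and 66 differentiated H4K5Ac (46.2%, 37.8 to 54.7). The differentiated lists had 23671 H3K9Ac and 33439 H4K5Ac regions, against 14975 and 41592, and these lengths move with the shares. An overlap of 1 bp counted as present, and the regions with 1 acetylation were narrower and lower in score. These shares were not compared within classes of width or score.

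By gene, 10747 of the 10873 promoters with both acetylations had both after differentiation (98.8%). Of the 1524 promoters with H4K5Ac only, 536 had both after differentiation (35.2%, 32.8 to 37.6), 559 still had H4K5Ac only (36.7%), 63 had H3K9Ac only and 366 had neither (24.0%). Of the 114 with H3K9Ac only, 57 had both and 51 still had H3K9Ac only. Among the 8 fixed genes with H4K5Ac only, Dlx3 and Dmp1 had both after differentiation, Ibsp, Mepe, Mmp13, Tnfsf11 and Bmp4 still had H4K5Ac only, and Phex had neither. With 1 list per state these changes have no replicate check.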

How the data were processed

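Per the submitters' processing notes, the authors aligned reads with Bowtie to mm9 and called peaks with HOMER. Tool versions and peak thresholds: not given in the sources used here. Each deposited list holds, per the labels, merged replicate peaks. The deposited score of a region is the authors' own value and was used only to rank regions within a list. All RUNX2 and C/EBPβ peaks have a score of 0 and 1 fixed width, so peak height is unknown, and regions of the marks are at least 1001 bp wide. Overlaps, shares, densities and motif matches were computed with Python 3.11.15, NumPy 2.4.6 and SciPy 1.17.1 on NCBIM37 (mm9) with GENCODE vM1, and the overlap, distance and promoter steps were tested on simulated intervals. Positions are 1-based, and 1 RUNX2 peak that began before its chromosome's first base was cut there. The 22368 genes are the protein-coding genes of chromosomes 1 to 19, X and Y plus Cebpd, with 70052 TSSs. A promoter is within 1 kb of a TSS. Comparisons by bases used nuclear chromosomes. List symbols were matched to the annotation, 6 through older names, and 1 of 8 osteocyte symbols was not matched.

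Named genes were 36 fixed genes, the nearest genes of the 5 best-scored regions of each acetylation and of the 10 widest regions of 3 classes, the 10 genes with most H4K5Ac and no H3K9Ac regions, and list members. Of the rankings only leading genes are named, and 1 fixed gene is not reported here. The members and lists were chosen with earlier results of these data known. Tried alternatives cover the overlap rule, score, merging, chromosomes, promoter width, TSS set, width class and motif window. Input DNA and 5 differentiated lists were not analysed here.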

Additional observations from a re-analysis of the deposited data

Results flagged for a closer look

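The undifferentiated RUNX2 list held 13 peaks on the mitochondrial chromosome, which the comparisons by bases, genes and motifs did not use. For scale, a count of 0 allows about 3 counts by counting error alone, which is not an expected number for this list. The C/EBPβ list held 0 peaks there, and the H3K9Ac and H4K5Ac lists held 2 regions each. Both mitochondrial H4K5Ac regions overlapped H3K9Ac and were kept in the counts of regions. The part of read placement in these peaks was not tested, and input DNA was not analysed here.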

How the results depend on the processing

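Across 17 results and 137 values under the alternatives, 2 changed direction, 49 moved beyond the interval of the main value or by over 1.5 times, and 86 did neither. No paired analysis was possible because each antibody and state is 1 merged list with no replicate columns, and for the same reason no replicate could be left out. The 2 that changed direction are the width ratio of H4K5Ac regions with and without H3K9Ac, 0.925 in the better-scored 50% of each list and 0.847 with H4K5Ac limited to as many regions as H3K9Ac. The ratio was 1.17 when the centre had to lie inside the other mark. That rule also gave 98.7% of H3K9Ac with H4K5Ac, 21.5% of H4K5Ac with H3K9Ac, and differences of 16.0 points for RUNX2 and 7.58 for C/EBPβ in H4K5Ac regions. In the better-scored 50%, 95.7% of H3K9Ac and 32.1% of H4K5Ac regions had the other mark, the H4K5Ac differences were 69.6 points at promoters, 15.7 for RUNX2, 4.93 for C/EBPβ and 73.2 for H3K4me3, the H3K9Ac difference for RUNX2 was 24.0, the density ratios were 4.27 for RUNX2 and 2.73 for C/EBPβ, and 2880 genes had H4K5Ac only and 362 H3K9Ac only. With H4K5Ac limited, the values in the same order were 73.1%, 59.9%, 63.6, 16.2, 6.68, 56.3 and 28.2 points, a C/EBPβ density ratio of 4.48, and 628 and 3359 genes. Promoters within 5 kb gave a difference of 61.6 points. Over width classes from narrow to wide, the promoter difference was 57.1, 75.9, 72.5, 60.5 and 44.0 points, that for RUNX2 5.57, 12.7, 22.5, 26.3 and 31.1, and that for C/EBPβ 3.99, 6.15, 9.39, 16.4 and 22.8. With no TSS within 1 kb, the H4K5Ac differences were 40.1 for RUNX2 and 37.3 for C/EBPβ, those of H3K9Ac 43.8 and 30.7, and the density ratios 6.79 and 4.97. The RUNX motif difference within 50 bp was -23.5 points. The counts of single-mark genes thus depend on the lengths and score limits of the lists, whose read depth is unknown. The cause of the other moves was not tested.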

Other observations

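Gene families with many members are given beside all genes, of which 48.6% had both acetylations and 6.81% H4K5Ac only. Of 40 genes with a Hox symbol, homeobox genes of body axis patterning, 17 had both acetylations (42.5%), 12 had H4K5Ac only and 11 had neither. Of 43 genes with a Col symbol, the collagens, 22 had both (51.2%) and 11 had H4K5Ac only (25.6%). Of 396 zinc finger genes with a Zfp, Zkscan or Zscan symbol, 282 had both (71.2%) and 26 had H4K5Ac only (6.57%), the latter near the share of all genes. Of 51 keratin genes (Krt) none had both and 11 had H4K5Ac only (21.6%). Ribosomal protein genes (Rpl and Rps) had both in 73 of 76 cases, and olfactory receptors (Olfr) had neither in 1103 of 1113. Members of a family lie in clusters and can share 1 region, so they are not independent.

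The share of H4K5Ac regions with H3K9Ac ranged over chromosomes 1 to 19 and X from 25.1% on chromosome 18 (369 of 1473) to 41.1% on chromosome X (344 of 838, 37.7 to 44.5), with chromosome 7 at 40.8% (874 of 2140).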
